A study of Mus musculus with 8 samples.

Results

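The genes described here encode the aminoacyl-tRNA synthetases, the enzymes that load each transfer RNA with its amino acid. The set was a list of 34 gene names, 20 for the cytosolic enzymes and 14 for the mitochondrial ones. A probe belonged to the set where its deposited gene name, in any letter case, was one of those names, and where a gene had several probes the brightest one, by its mean over all arrays, stood for the gene. Of the 34 genes, 32 had a probe on the array, out of 17831 gene names in all, and they shared 54 probes. Cars2 and Tars2 are not analysed here. Of the 32 genes, 26 were detected above the array's negative controls (detection p under 0.05) on at least 2 of 8 arrays and were tested, among 7894 tested genes.

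The RNA came from CD8+ T cells sorted from B16.SIY.dsRed melanomas, a mouse tumor line carrying the SIY model antigen and a red fluorescent protein, on day 14 after engraftment on both flanks of female C57BL/6 mice. No mouse or cell was treated. Cells were sorted by 4-1BB, LAG3 and PD-1, surface receptors of activated and dysfunctional T cells, into 4 populations. Triple-negative cells lacked all 3 receptors, PD-1+ cells carried PD-1 without 4-1BB or LAG3, LAG3+ cells carried LAG3 without 4-1BB, and double-positive cells carried 4-1BB and LAG3. Whether the last 2 populations carried PD-1 is not stated in the labels. Tumors of 10 mice were pooled per the labels, and each population was measured on 1-colour bead arrays in 2 experiments, so that 8 arrays give 2 values per population. An array value is therefore a pool of animals. The p-values rest on the gaps between the 2 pools of a population, combined over all 4 populations. A wide gap between the PD-1+ pools therefore also widens the errors of comparisons without PD-1+ cells. In such sorted bulk samples, more RNA per cell and more cells with the RNA cannot be told apart.

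Each cytosolic synthetase recognises 1 amino acid, apart from Eprs, whose product joins glutamate and proline activities in 1 chain. Several of them sit together in the multisynthetase complex, held by the scaffold proteins encoded by Aimp1, Aimp2 and Eef1e1. Mitochondria use a separate set of nuclear-encoded synthetases, whose gene names end in 2 here, while Gars and Kars give rise to enzymes of both compartments. Activated T cells are known to enlarge their protein synthesis machinery, and the transcription factor ATF4 is known to raise many cytosolic synthetase genes when amino acids run short or the endoplasmic reticulum is stressed.

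Most tested cytosolic members were detected on most arrays, some of them dimly, and most mitochondrial members were close to background. Among the 17 cytosolic genes tested, 16 were detected on 7 or 8 arrays, and Eprs on 2. Hars and Eprs were dim, with log2 intensity from 4.39 to 5.49 and from 4.17 to 4.64. Among the 9 mitochondrial genes tested, Fars2 was detected on all 8 arrays, Mars2 and Rars2 on 7, and the other 6 on 2 to 4. The genes not tested were Cars and Yars among the cytosolic and Wars2 and Yars2 among the mitochondrial ones, each with its brightest probe detected on 0 arrays, and Farsa and Aars2, each detected on 1. The triple-negative array of experiment 1 detected all 26 tested members and the PD-1+ array of experiment 2 detected 14. Those arrays also stood at the ends of the range of all probes detected, 9044 and 5522, and of the mean deposited signal, 215.9 and 90.94 units. A change near background is understated, since the log2 values have an offset of 16 added, so a small value for a dim gene is weak information.

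No synthetase gene passed the test in any of the 7 comparisons between populations (limma, Benjamini-Hochberg adjusted p under 0.05 over 7894 genes). Double-positive against triple-negative cells was the comparison with the most calls between 2 populations over all genes, 74, or 0.937%, and at that rate the absence of a call among 26 genes is close to the background. At an unadjusted p under 0.05, 2 members, Gars and Aars, were higher in double-positive cells and 0 were lower, beside 6.78% of all tested genes higher and 6.79% lower. The values below therefore describe levels and their spread, and the word higher refers to means.

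The cytosolic genes tended to be highest in the double-positive population. Of 17, 13 had their highest mean there (76.5%), beside 25.2% of all tested genes. In double-positive minus triple-negative, 15 of 17 were higher and the median log2 change was 0.48, beside 49.6% higher and a median of -0.0052 over all tested genes. The median was 0.45 in experiment 1 and 0.22 in experiment 2, and 10 of 17 were higher in both experiments (all genes 32.5%). For 8 of 17 both double-positive arrays lay above both triple-negative arrays, and for 0 below, while over all tested genes 22.6% lay above and 21.7% below.

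**Figure D1:**
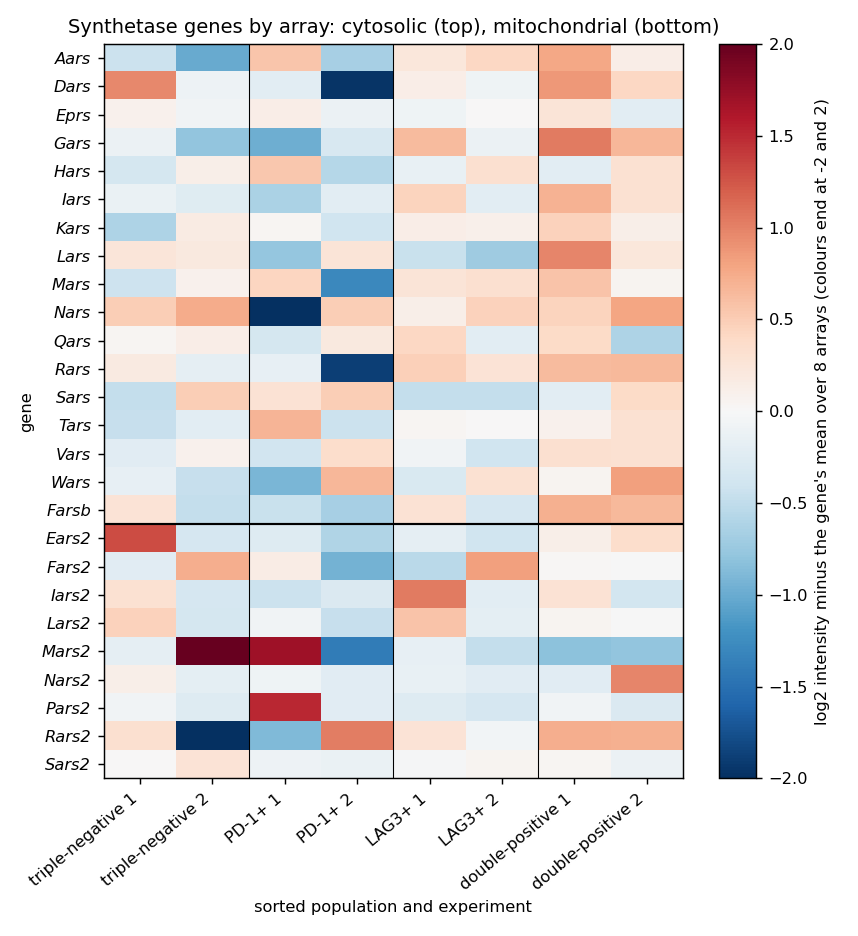
Heat map of the 26 tested synthetase genes (rows, cytosolic above the line and mitochondrial beneath it) on the 8 arrays (columns, population and experiment). Colour is the log2 intensity minus that gene's mean over the 8 arrays; 15 of 17 cytosolic genes lie above their own mean on each double-positive array, against 6 on the PD-1+ array of experiment 2.

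Gars, which encodes glycyl-tRNA synthetase, had the largest cytosolic difference. Its log2 intensity was 10.69 and 10.01 on the triple-negative arrays of experiments 1 and 2, 9.82 and 10.48 on the PD-1+ arrays, 11.43 and 10.69 on the LAG3+ arrays, and 11.84 and 11.47 on the double-positive arrays. The double-positive arrays were the 2 highest of the 8, and the LAG3+ arrays reached down to the triple-negative ones. The double-positive minus triple-negative change was 1.31 ± 0.44 (SE, n = 2 arrays a population), or 2.48-fold, with a 95% interval of 0.27 to 2.34 and a limma adjusted p of 0.248. In the deposited signal before any normalization, Gars read 5052.3 and 2913.9 in double-positive cells and 3117.3 and 855.5 in triple-negative cells.

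Aars, the gene of alanyl-tRNA synthetase, was low on both triple-negative arrays, at 7.43 and 6.85. The other arrays read 8.4 and 7.19 in PD-1+, 8.08 and 8.27 in LAG3+, and 8.63 and 8.0 in double-positive cells. Both the LAG3+ and the double-positive arrays lay above the triple-negative ones, and the PD-1+ arrays overlapped them. The change from triple-negative was 1.18 ± 0.49 in double-positive cells (2.26-fold, adjusted p = 0.36 in limma) and 1.04 ± 0.49 in LAG3+ cells (2.06-fold, adjusted p = 0.598). The 2 experiments gave nearly the same double-positive difference, 1.2 and 1.15.

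Farsb encodes the beta subunit of phenylalanyl-tRNA synthetase, whose alpha subunit gene Farsa was detected on 1 array only. Farsb read 9.89 and 9.14 in triple-negative, 9.17 and 8.95 in PD-1+, 9.91 and 9.28 in LAG3+, and 10.33 and 10.26 in double-positive cells. The double-positive arrays were the highest of all 8. Its change from triple-negative was 0.78 ± 0.39 (1.71-fold, adjusted p = 0.473 in limma), and a second Farsb probe, detected on 8 arrays, gave 0.73.

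Iars, the isoleucyl-tRNA synthetase gene, showed the same order at a lower size. It read 6.26 and 6.15 in triple-negative, 5.77 and 6.18 in PD-1+, 6.84 and 6.19 in LAG3+, and 7.09 and 6.71 in double-positive cells. Both double-positive arrays were above every triple-negative and PD-1+ array, and 1 LAG3+ array lay between them. The change from triple-negative was 0.69 ± 0.36 (adjusted p = 0.503), and 0.7 with a second probe of the gene.

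**Figure D2:**
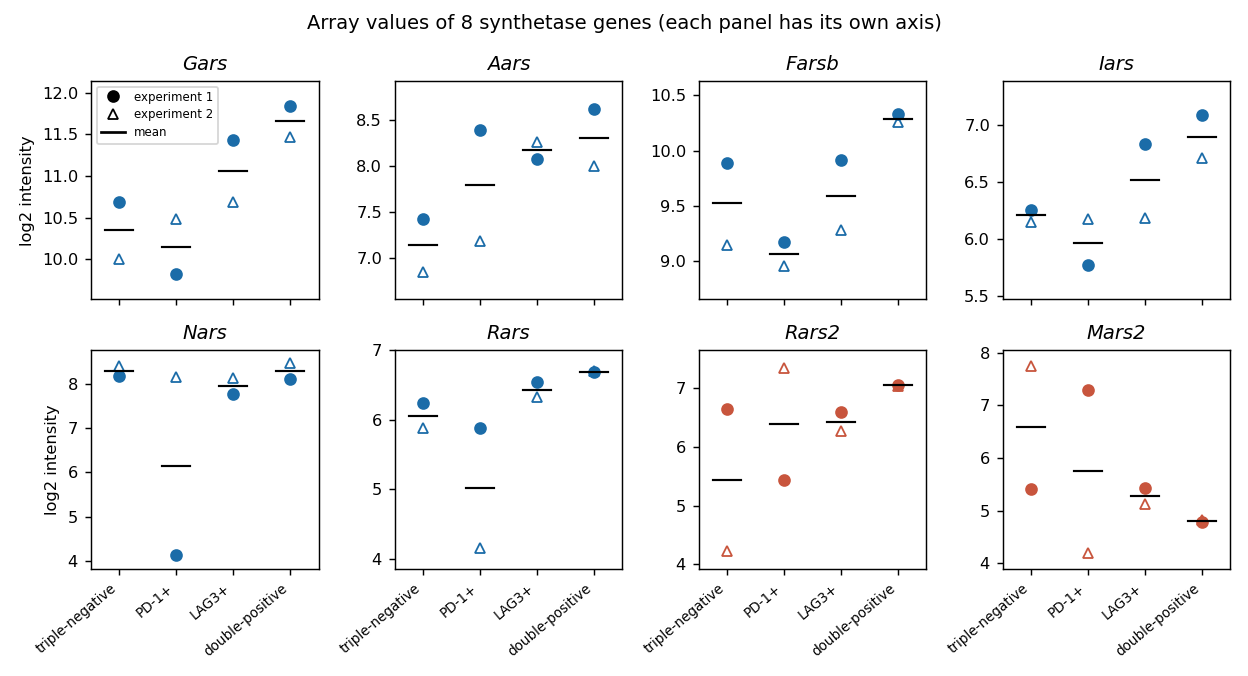
Array values (log2 intensity, vertical axis) of 8 synthetase genes in the 4 populations, with a filled circle for experiment 1, an open triangle for experiment 2 and a bar for their mean. Gars and Farsb are highest on both double-positive arrays, while Nars and Rars each drop on 1 PD-1+ array. Rars2 differs most between the 2 triple-negative arrays and Mars2 between the 2 PD-1+ arrays.

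The other cytosolic genes whose double-positive and triple-negative arrays did not overlap were Wars, Rars, Tars and Vars. Wars, whose tryptophanyl-tRNA synthetase is known as an interferon-γ-induced enzyme in human cells, read 7.25 and 6.95 in triple-negative and 7.48 and 8.24 in double-positive cells, a change of 0.76 ± 0.57 that came mostly from experiment 2 (1.28, against 0.23 in experiment 1). Its 2 PD-1+ arrays, at 6.51 and 8.08, spanned that whole difference. Rars, for arginine, read 6.24 and 5.88 in triple-negative and 6.69 and 6.7 in double-positive cells, a change of 0.64 ± 0.55. Tars, for threonine, changed by 0.53 ± 0.42 between those populations (0.54 and 0.52 in the 2 experiments), although its highest single value, 6.23, was on a PD-1+ array. Vars, for valine, changed by 0.39 ± 0.36. The limma adjusted p-values of these 4 genes lay between 0.719 and 0.811.

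Kars, Mars and Lars, for lysine, methionine and leucine, had positive means with overlapping arrays. Their double-positive minus triple-negative changes were 0.52 ± 0.38, 0.48 ± 0.57 and 0.39 ± 0.45. For Kars the difference was 1.09 in experiment 1 and -0.049 in experiment 2, so it rested on the single low triple-negative value of 8.45. The remaining 6 cytosolic genes were near 0: Dars (aspartate) at 0.2, Hars (histidine) at 0.16, Sars (serine) at 0.076, Eprs at 0.0067, Nars (asparagine) at -0.0038 and Qars (glutamine) at -0.2. Their standard errors ran from 0.32 for Eprs to 1.12 for Nars, whose interval was -2.66 to 2.66. That width takes in the gap between the PD-1+ arrays, 4.13 and 8.16, because all populations share a spread estimate. The Nars arrays compared here read 8.17 and 8.41 in triple-negative and 8.11 and 8.46 in double-positive cells.

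The 8 cytosolic members known as enzymes of the multisynthetase complex, Dars, Eprs, Iars, Kars, Lars, Mars, Qars and Rars, covered much the same range as the other 9. In double-positive minus triple-negative, 7 of 8 were higher with a median of 0.43 and a range of -0.2 to 0.69, and outside the complex 8 of 9 were higher with a median of 0.53. The 2 largest changes, Gars and Aars, were outside it. This split was made after the values had been seen and carries no test.

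**Figure D3:**
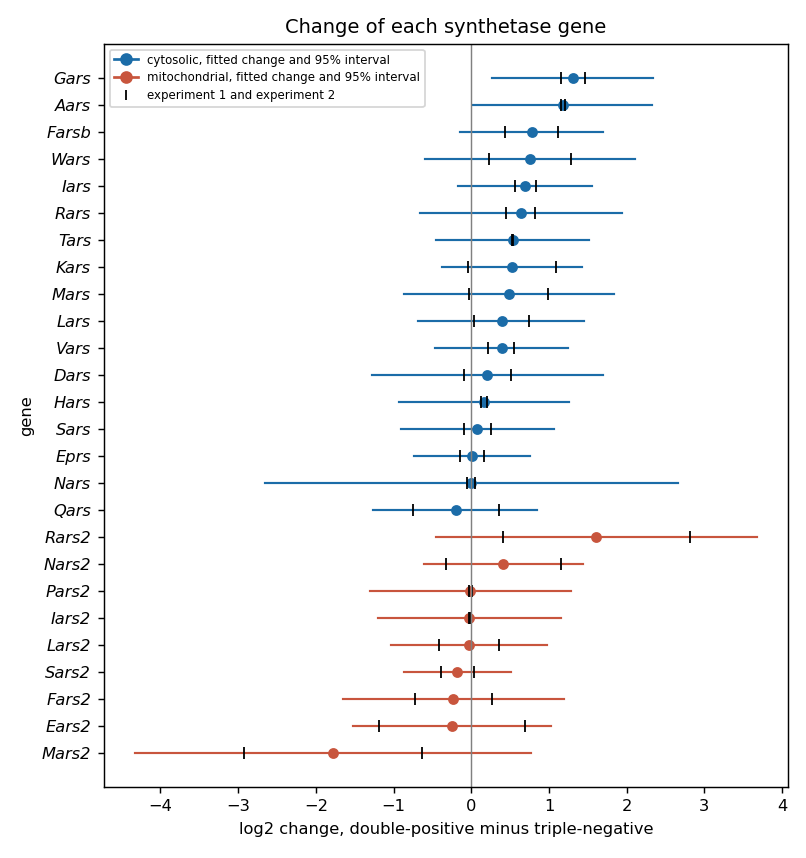
Fitted log2 change, double-positive minus triple-negative, of each tested synthetase gene (circles) with its 95% interval (lines) and the change within each experiment (vertical ticks). The cytosolic genes lie mostly right of 0, from -0.2 to 1.31, and the mitochondrial genes lie near 0 apart from Rars2 at 1.61 and Mars2 at -1.78, whose intervals are among the widest.

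Most mitochondrial genes lay near 0. In double-positive minus triple-negative 2 of 9 were higher, and the median was -0.03. The 3 that were detected on 7 or 8 arrays went apart. Rars2, the mitochondrial arginyl enzyme gene, read 6.64 and 4.23 in triple-negative and 7.06 and 7.04 in double-positive cells, a change of 1.61 ± 0.87 (limma adjusted p = 0.522) made of 0.41 in experiment 1 and 2.81 in experiment 2. Its triple-negative value of experiment 2 was not above background. Of its other probes, 2 were detected on at least 2 arrays and gave 1.3 and 1.07.

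Mars2, for mitochondrial methionyl-tRNA, ran the other way. It read 5.42 and 7.75 in triple-negative, 7.3 and 4.2 in PD-1+, 5.44 and 5.12 in LAG3+, and 4.79 and 4.82 in double-positive cells. The double-positive arrays lay beneath both triple-negative arrays, but the change of -1.78 ± 1.08 (3.44-fold lower, adjusted p = 0.592 in limma) was -0.63 in experiment 1 and -2.93 in experiment 2. Fars2, for mitochondrial phenylalanyl-tRNA, read 7.86 and 8.81 in triple-negative and 8.12 and 8.09 in double-positive cells, so the second pair lay inside the first.

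Of the 6 dim mitochondrial genes, 4 gave a lower bound against PD-1+ or LAG3+ cells, in which they were not detected on either array. Each bound sets the brighter population's mean against the lowest signal that counted as detected. It describes population means only and carries no sampling error, so it does not exclude an absence of change. The mean of Ears2, for glutamyl-tRNA, was at least 1.43-fold higher in triple-negative and at least 1.2-fold higher in double-positive than in PD-1+ cells. The triple-negative bound came from 1 array at 6.2, the other, at 4.55, being not above background. Nars2, for asparaginyl-tRNA, was at least 1.2-fold higher in double-positive than in LAG3+ cells, by 1 double-positive array at 5.32, the other being at 4.12 and not detected. The mean of Pars2, for prolyl-tRNA, was at least 1.55-fold higher in PD-1+ than in LAG3+ cells. This came from 1 PD-1+ array at 5.96, the other being at 4.23. The mean of Iars2 was at least 1.08-fold higher in LAG3+ than in PD-1+ cells, by 1 LAG3+ array at 5.59, the other being at 4.35 and not detected. Lars2 and Sars2 gave none. None of these passed the limma test.

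The cytosolic median of LAG3+ cells lay between those of triple-negative and double-positive cells, with single genes on either side. In LAG3+ minus triple-negative, 11 of 17 were higher with a median of 0.21, 4 did not overlap upward and 3 downward, and over all tested genes 19.2% and 19.6% did so and 0.152% passed the test. Without the LAG3+ array of experiment 1, 8 of 17 were higher and the median was -0.0019. Lars was the largest cytosolic difference in the other direction, at 5.36 and 5.09 in LAG3+ against 6.05 and 6.0 in triple-negative cells, a change of -0.8 ± 0.45 (limma adjusted p = 0.713). In double-positive minus LAG3+, 15 of 17 cytosolic genes were higher with a median of 0.32, beside 51.5% of all genes higher and a median of 0.011. There 8 of 17 did not overlap upward and 0 downward, beside 17.2% and 14.3% of all tested genes. Over all genes 0 passed (0%), with 97 higher and 111 lower at an unadjusted p under 0.05. Lars had the lowest unadjusted p of the members there, 0.034, at a change of 1.18 ± 0.45 with an adjusted p of 1.0.

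Averaging the double-positive and LAG3+ populations against triple-negative cells gave a cytosolic median of 0.43 and a mitochondrial median of -0.066. Of 17 cytosolic genes 11 were higher, beside 50.4% of all tested genes, whose median was 0.0041. Of the 17, 3 did not overlap upward and 0 downward, beside 1043 and 1022 of all 7894 tested genes. Aars, at 1.11 ± 0.42, and Gars, at 1.01 ± 0.38, were again the largest cytosolic changes, with limma adjusted p-values of 0.311 and 0.3, in a comparison where 1.23% of genes passed. All comparisons with triple-negative cells share the same 2 triple-negative arrays, so their values are not independent of each other.

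**Figure D4:**
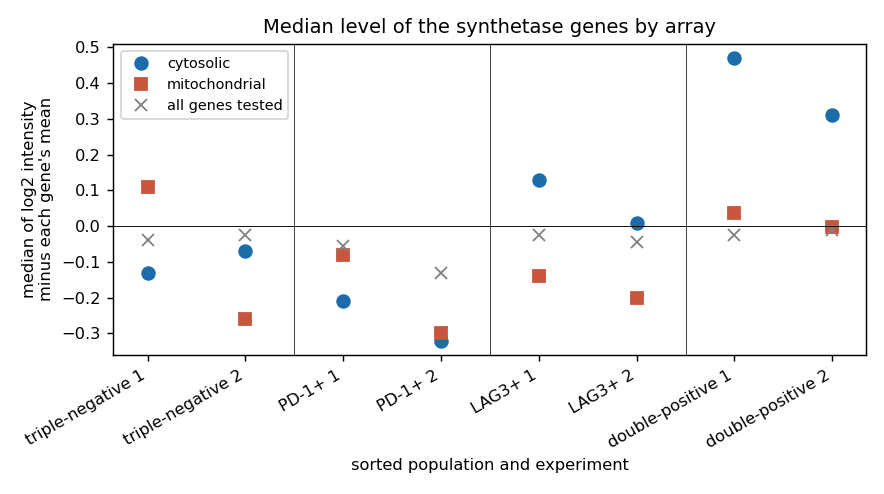
Median over the cytosolic genes (circles), the mitochondrial genes (squares) and all tested genes (crosses) of the log2 intensity minus each gene's own mean, by array. The cytosolic median is 0.47 and 0.31 on the double-positive arrays, 0.13 and 0.01 on the LAG3+ arrays, and from -0.069 to -0.32 on the other 4.

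PD-1+ cells had the lowest cytosolic medians and the widest spread between arrays. Their arrays were also the dimmest of each experiment, with 6404 and 5522 probes detected and mean deposited signals of 122.8 and 90.94 units. They detected 15 and 12 of the 17 cytosolic genes, and their medians over all tested genes, -0.055 and -0.13, were the lowest too. The part of array signal in the PD-1+ values was not tested. Of 17 cytosolic genes, 7 had their lowest mean there (41.2%), beside 34.5% of all tested genes, and 5 in triple-negative cells. In PD-1+ minus triple-negative, 7 of 17 cytosolic genes were higher with a median of -0.17, and 2 of 9 mitochondrial genes with a median of -0.32, beside 47.3% of all genes higher, a median of -0.041 and 0.532% passing. Of the cytosolic genes 0 lay above without overlap and 2, Dars and Nars, lay beneath, beside 17.6% and 22.3% of all tested genes. Dars read 6.55 and 4.8 in PD-1+ against 7.72 and 6.66 in triple-negative cells, a change of -1.52 ± 0.63 (2.86-fold lower, limma adjusted p = 0.332).

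The 2 PD-1+ arrays disagreed with each other more than any other pair. The gap between the arrays of a population exceeded 1 log2 unit for 13 of 26 members in PD-1+ cells, against 4 in triple-negative cells and 2 each in LAG3+ and double-positive ones. The widest was Nars, at 4.13 on the PD-1+ array of experiment 1, at background, and 8.16 on that of experiment 2, while the other 6 arrays read 7.78 to 8.46. Rars went the opposite way, at 5.88 and 4.16. The 2 PD-1+ arrays correlated at 0.771 across all tested genes, and the other pairs at 0.898 to 0.934.

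Set against PD-1+ cells, double-positive cells had 15 of 17 cytosolic genes higher, with a median of 0.56. Of 9 mitochondrial genes 7 were also higher, with a median of 0.32. Over all genes 53.5% were higher, the median was 0.053 and 0.0507% passed. Of the cytosolic genes 6 did not overlap upward and 0 downward (all genes 24.8% and 19.8%). The largest changes with non-overlapping arrays were Dars at 1.72 ± 0.63, Rars at 1.67 ± 0.55, Gars at 1.51 ± 0.44 and Farsb at 1.23 ± 0.39, with limma adjusted p-values from 0.191 for Gars to 0.278 for Dars. In LAG3+ minus PD-1+, 12 of 17 cytosolic genes were higher with a median of 0.3, and 6 of 9 mitochondrial genes with a median of 0.13. Over all genes 53.8% were higher and 0.076% passed. Rars, at 1.41 ± 0.55, had the lowest adjusted p there, 0.395.

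These PD-1+ results turned on which array was used. Without the PD-1+ array of experiment 1, Rars passed in all 3 comparisons with PD-1+ cells, at -1.89 against triple-negative (limma adjusted p = 0.0448), and Dars passed in double-positive minus PD-1+ (2.59, adjusted p = 0.0482). Without the PD-1+ array of experiment 2, Nars passed in all 3 instead, at -4.15 against triple-negative (adjusted p = 0.0226). In each case 1 PD-1+ array was left, assumed to vary like the other populations, and each gene that passed was not above background on that array.

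Promoter sequences are shown for Gars and Aars, the cytosolic genes with the largest differences, for Iars, and for Asns, the asparagine synthetase gene whose promoter is a textbook target of ATF4 and whose values follow. Iars, at 0.69, is not the next in size: Farsb, at 0.78, and Wars, at 0.76, are not shown. Each runs from 250 bases before to 50 bases after the annotated start in RefSeq on build GRCm38.p6, written 5′ to 3′ on the gene's strand. Capitals mark 3 motifs searched on both strands: TGATGCA (reverse TGCATCA), the core of the C/EBP-ATF response element; TGATGAA (reverse TTCATCA), the core of the Asns nutrient-sensing element; and CACGTG, the E-box bound by MYC and related factors. The Aars window is chr8:111033592-111033891 (plus strand), Gars chr6:55037751-55038050 (plus), Iars chr13:49681880-49682179 (plus) and Asns chr6:7693160-7693459 (minus).
Aars: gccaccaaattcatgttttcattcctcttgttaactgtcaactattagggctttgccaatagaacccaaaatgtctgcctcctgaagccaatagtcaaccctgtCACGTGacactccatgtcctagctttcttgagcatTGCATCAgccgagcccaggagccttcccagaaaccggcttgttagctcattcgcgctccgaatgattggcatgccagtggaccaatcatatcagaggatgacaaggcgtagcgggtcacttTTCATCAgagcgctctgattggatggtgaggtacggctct
Gars: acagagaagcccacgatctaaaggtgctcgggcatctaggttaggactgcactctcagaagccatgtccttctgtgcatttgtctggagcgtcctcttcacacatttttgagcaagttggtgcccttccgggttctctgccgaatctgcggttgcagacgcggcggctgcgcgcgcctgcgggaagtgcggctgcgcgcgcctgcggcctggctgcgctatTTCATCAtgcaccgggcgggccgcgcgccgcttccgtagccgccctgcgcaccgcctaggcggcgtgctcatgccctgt
Iars: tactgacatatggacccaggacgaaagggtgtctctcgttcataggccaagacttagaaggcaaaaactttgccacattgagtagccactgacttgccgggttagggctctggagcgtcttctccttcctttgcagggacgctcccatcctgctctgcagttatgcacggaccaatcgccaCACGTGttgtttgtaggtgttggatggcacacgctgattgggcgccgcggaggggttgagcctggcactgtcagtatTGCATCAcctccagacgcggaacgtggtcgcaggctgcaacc
Asns: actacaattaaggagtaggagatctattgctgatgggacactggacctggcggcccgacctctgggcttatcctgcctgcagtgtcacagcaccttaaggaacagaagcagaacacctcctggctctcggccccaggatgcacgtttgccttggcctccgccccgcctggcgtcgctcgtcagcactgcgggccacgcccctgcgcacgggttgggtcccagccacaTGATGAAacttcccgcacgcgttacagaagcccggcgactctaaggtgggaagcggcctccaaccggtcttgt

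The Aars window held 1 match to each of the 3 motifs, Gars and Asns 1 TGATGAA match each, and Iars 1 TGATGCA match and 1 E-box. Of the synthetase genes, 26 had a promoter window in the table. TGATGCA occurred in 4 of them (15.4%: Aars, Iars, Tars and Yars) and in 3.15% of all 32851 windows, and CACGTG in 5 (19.2%: Aars, Ears2, Farsb, Iars and Tars) and in 7.15%. TGATGAA, added after the Asns values had been seen, occurred in 2 (7.69%: Aars and Gars) and in 3.52%. The 3 motifs do not share letters in any printed window. Yars, which holds the first motif, was not detected on any array. Farsb and Wars, which changed more than Iars, are not among the genes holding TGATGCA or TGATGAA.

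Among genes that work beside the synthetases, the scaffold genes of the multisynthetase complex split. Eef1e1 changed by 1.3 ± 0.44 in double-positive minus triple-negative, Aimp2 by 1.13 ± 0.5 and Aimp1 by -0.096 ± 0.42, and 0 of 3 passed. Of 10 other charging genes, 7 were higher and 0 passed, with a median of 0.29, from Qrsl1, a subunit of the mitochondrial glutaminyl-tRNA amidotransferase, at 1.22 ± 1.14 to Dtd1, a D-aminoacyl-tRNA deacylase, at -0.34 ± 0.32. Genes of tRNA synthesis and export, chiefly RNA polymerase III and its factors, were lower in 11 of 16, with a median of -0.22 and 0 passing. The lowest was Gtf3c6, a TFIIIC subunit, at -1.58 ± 0.5.

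The translation factor lists had medians from -0.14 to 0.28. Of 25 initiation genes 16 were higher, with a median of 0.21, from Eif4h, a partner of the eIF4A helicase, at 1.06 ± 0.29 to Eif5, which stimulates start codon recognition, at -1.01 ± 0.5. Of 6 elongation genes 3 were higher, with a median of -0.14, from Eif5a at 0.58 to Eef1b2 at -0.66. Of 7 mitochondrial translation factors 6 were higher, with a median of 0.28, from Mtrf1l at 1.52 ± 0.54 to Mtrf1 at -0.74 ± 0.6, both of the peptide release factor family. None of these genes passed, and all values are double-positive minus triple-negative.

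The amino acid response list, genes known to answer ATF4 and amino acid shortage, held the single gene of all lists that passed in this comparison in the main fit. Ppp1r15a, Ifng and Eif4h also passed under some of the alternatives, with and without a block. Asns read 4.5 and 4.13 in triple-negative, 6.77 and 6.14 in PD-1+, 7.68 and 6.81 in LAG3+, and 8.37 and 8.68 in double-positive cells. All 6 arrays of the receptor-bearing populations were above both triple-negative arrays, and double-positive was highest. The triple-negative value of experiment 2 was not above background. Asns rose by 4.21 ± 0.42 (limma adjusted p = 0.013), a call that was lost when any 1 of the 4 arrays compared was left out, at changes of 4.02 to 4.4 with adjusted p-values from 0.0737 to 0.142. Apart from leaving 1 array out, the alternatives gave an Asns change of 2.17 to 4.23. The list as a whole did not share the direction of Asns, with 8 of 21 higher, 13 lower and a median of -0.077. The genes named next were picked after their values were seen. Both double-positive arrays lay above both triple-negative arrays for Psat1, Mthfd2 and Slc7a5, and beneath them for Atf4, Ddit3 and Cebpb. Psat1 read 7.63 and 7.15 in triple-negative and 9.17 and 9.15 in double-positive cells. Atf4 read 9.76 and 10.11 in the first and 9.28 and 9.3 in the second. Ppp1r15a, which restarts translation after stress, was at -2.14 ± 0.35 (adjusted p = 0.0508, and 0.0416 with the experiment as a block). It fell by 2.06 in the mean of double-positive and LAG3+ minus triple-negative (limma adjusted p = 0.0325), a call lost when any 1 of the 6 arrays compared was left out (adjusted p from 0.0927 to 0.213) and with no detection filter (0.0551).

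Of 5 tested genes of the MYC network, 3 were higher and the median was 0.021, from Mxi1 at 0.57 to Mxd1 at -0.19, with 0 passing, and Myc itself was not tested. Of 13 genes of the interferon-γ response list, which bears on Wars, 8 were higher and 0 passed, with a median of 0.39. Ifng, the cytokine gene, was at 2.49 ± 0.41 (limma adjusted p = 0.0508, and 0.0369 with the experiment as a block). It rose by 2.34 in the mean of double-positive and LAG3+ minus triple-negative (limma adjusted p = 0.0348), a call lost when any 1 of the 6 arrays compared was left out (adjusted p from 0.113 to 0.151) and with no detection filter (0.0889). Other genes of the list went both ways, named here after their values were seen. Both double-positive arrays lay above both triple-negative arrays for Psmb8, Psmb9, Gbp3, Tap1 and Tap2, and beneath them for Igtp, Irf1, Gbp2, Cxcl9 and B2m. Psmb9 read 10.1 and 9.7 in triple-negative and 11.09 and 10.84 in double-positive cells. In double-positive minus triple-negative, Igtp, an interferon-induced GTPase, was at -2.37 and Irf1, an interferon-response transcription factor, at -1.88. Gbp2, a guanylate-binding protein gene, was at -1.89. Igtp, Irf1 and Gbp2 were each lower in both experiments.

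**Figure D5:**
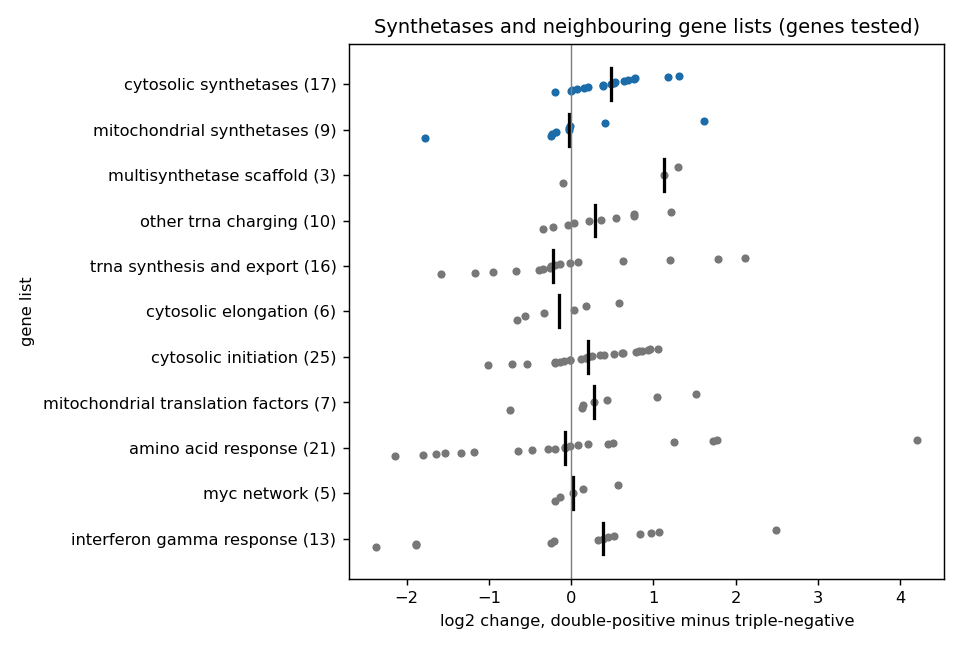
Log2 change, double-positive minus triple-negative, of every tested gene (points) in the synthetase sets and the neighbouring lists, with the number tested in brackets and the median as a bar. The cytosolic synthetase median is 0.48 and the mitochondrial one -0.03; Asns, at 4.21, is the farthest point.

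The sorted cells carried T cell transcripts, and the markers listed for other cells varied with the populations. The summed level of 8 CD8 T cell markers (2 raised to the log2 values, added) was 11300 to 14700 on all arrays, although the probe of Cd8a itself was detected on none. The sum of 7 melanoma markers was 239 and 211 in triple-negative cells in experiments 1 and 2, 308 and 2390 in double-positive, 527 and 2300 in LAG3+, and 830 and 4500 in PD-1+ cells, with Tyr and Mitf not detected on any array. The cytosolic synthetase median in double-positive minus triple-negative was 0.45 in experiment 1 and 0.22 in experiment 2. The experiments also differed in mean deposited signal, 215.9 and 134.6 units on the triple-negative arrays. A link between the melanoma sums and the synthetase median was not tested. The sum of 7 dendritic cell markers, most of them class II genes, was 1030 to 1210 in triple-negative and 389 to 391 in double-positive cells, with Itgax and Flt3 not detected. Ccr7, also in this list, was its brightest detected gene on both triple-negative arrays, at log2 values of 8.53 and 9.47. It read 5.56 and 7.44 in double-positive cells, and whether it came from the T cells themselves was not tested. The sum of 9 macrophage markers was 396 to 1350 in PD-1+ cells and 182 to 309 in the other populations, with C1qc not detected. The sum of 5 B cell markers was 330 to 356 in PD-1+ cells and 90.1 to 180 elsewhere, with Cd79a, Ms4a1 and Pax5 not detected. The part of these cells in the synthetase values was not tested.

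Other probes of the same genes mostly gave the same sign. Of the 26 tested members, 10 had a further probe detected on at least 2 arrays, and 9 of 12 such probes had the sign of the brightest probe in double-positive minus triple-negative. The exceptions were Dars, whose second probe, detected on 3 arrays, gave -0.82, Sars, whose second probe, on 2 arrays, gave -0.35, and a probe of Vars at -0.01. A further probe was deposited under a locus identifier that the platform annotation gives to Mars, and the naming rule does not take it in. It was detected on all 8 arrays and changed by 1.13 ± 0.54 in double-positive and 1.11 ± 0.54 in LAG3+ minus triple-negative (limma adjusted p = 0.44 and 0.619), beside 0.48 and 0.46 for the Mars probe used above.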

How the data were processed

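The deposited table holds unnormalized probe intensity values and a detection p-value per probe and array, per the file headers; the software behind them is not given in any source used here. A second deposited table holds the authors' normalized intensity values, whose method is not given and which served only as an alternative. From the first table, limma 3.58.1 in R 4.3.3 (neqc, offset 16) subtracted a background modelled on negative controls, which it deduced from the detection p-values, and quantile normalized the arrays, giving log2 values of the deposited intensities. Probes were named by their deposited name for the synthetases and otherwise through the platform annotation and RefSeq, giving 17831 gene names from 25697 probes. The brightest probe stood for a gene, and genes detected (p under 0.05) on at least 2 of 8 arrays were tested.

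limma fitted 4 population means over all 8 arrays without a block, with 4 residual and 2.98 prior degrees of freedom, and p-values were two-sided and Benjamini-Hochberg adjusted over 7894 genes per comparison. With 2 arrays a population an exact permutation test cannot go below p = 0.333, so none was run. Precision is limited by the number of arrays: over all genes, a double-positive minus triple-negative change had a median standard error of 0.448. The fit was tested on simulated data. The sample titles put same-numbered arrays in the same experiment, and their deviations correlated at 0.0921 to 0.222 between populations.

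Every listed synthetase gene was named where it had a value, outside the double-positive minus triple-negative comparison mainly where its change reached 0.7 in size. Of each pathway list, genes past the threshold in any comparison were named and otherwise the highest and the lowest change; 1 gene that this rule would name is not reported here. The members and lists were chosen with earlier results of these data known. Alternatives were the replicate block, a larger offset, no background correction, the authors' values, other detection filters, the mean of all probes, array weights and leaving arrays out.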

Additional observations from a re-analysis of the deposited data

How the results depend on the processing

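The replicate block, with the experiment number as a term, left 0 synthetase genes passing in every comparison. It moved the calls over all genes from 12 to 0 in LAG3+ minus triple-negative, from 42 to 28 in PD-1+ minus triple-negative and from 6 to 0 in LAG3+ minus PD-1+, and by no more than 1.5 times in the others. Calls over all genes in double-positive minus triple-negative, 74, ran from 0 without the triple-negative array of experiment 1 or either double-positive array (1 without the other triple-negative array, 17 without either LAG3+ array) to 212 without the PD-1+ arrays and 229 with array weights, and were 42 with no detection filter and 114 with no background correction. For the mean of double-positive and LAG3+ the 97 calls ran from 0 to 246. In LAG3+ minus triple-negative the 12 calls ran from 0 to 66, in PD-1+ minus triple-negative the 42 from 0 to 298, in double-positive minus PD-1+ the 4 from 0 to 378 and in LAG3+ minus PD-1+ the 6 from 0 to 165, the last 3 highest without the PD-1+ array of experiment 1.

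The count of synthetase genes passing stayed at 0 under all alternatives except when a PD-1+ array was left out. It then ran from 0 to 1 in PD-1+ minus triple-negative, from 0 to 2 in double-positive minus PD-1+ and from 0 to 1 in LAG3+ minus PD-1+ (Rars and Dars without the first PD-1+ array, Nars without the second). The number of cytosolic genes higher in double-positive minus triple-negative ran from 13 to 15 over the alternatives, and of mitochondrial genes from 1 to 6. The cytosolic median there was 0.3 at offset 50 and 0.19 with no background correction, and 0.38 to 0.54 leaving out each array. In LAG3+ minus triple-negative it was 0.099, 0.07 and, with no detection filter, 0.059, and -0.0019 to 0.33 leaving out each array, the lowest without the first LAG3+ array. In the mean of double-positive and LAG3+ it was 0.25, 0.16 and 0.15 under the same 3 settings, and 0.22 to 0.43 leaving out each array, the lowest without the first triple-negative array.

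The mitochondrial median in double-positive minus triple-negative was -0.011 with no background correction, -0.21 with detection on 4 arrays, and -0.13 to 0.29 leaving out each array, the highest without the first triple-negative array. In LAG3+ minus triple-negative it was -0.05 at offset 50, -0.062 with no background correction, -0.13 with the authors' values, -0.11 with no filter, with the 4-array filter and with the mean of all probes, and -0.21 to 0.002 leaving out each array. In PD-1+ minus triple-negative it was -0.14, -0.097, -0.19 with no filter and -0.49 with the 4-array filter, and -0.32 to -0.031 leaving out each array. In the mean of double-positive and LAG3+ it was -0.16 with the 4-array filter and -0.12 to 0.28 leaving out each array. The cause of these shifts was not tested.

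Of 63 single-gene changes, some turned sign, and no turned value was past the threshold. In double-positive minus triple-negative, Dars was -0.31 and Sars -0.14 with the mean of all probes, and Eprs was -0.014 with no background correction and -0.005 with the authors' values. Leaving out each array, the change there ran for Dars from -0.33 to 0.74, for Eprs from -0.23 to 0.24, for Hars from -0.096 to 0.43, for Nars from -0.18 to 0.17, for Qars from -0.7 to 0.3, for Sars from -0.4 to 0.56, for Ears2 from -1.07 to 0.57, for Fars2 from -0.71 to 0.24, for Iars2 from -0.35 to 0.3, for Lars2 from -0.44 to 0.38, for Nars2 from -0.18 to 1.01 and for Pars2 from -0.12 to 0.096. In LAG3+ minus triple-negative Ears2 ran from -1.59 to 0.054 and Rars2 from -0.21 to 2.2. In PD-1+ minus triple-negative Mars2 ran from -2.38 to 0.71, Pars2 from -0.052 to 1.68 and Rars2 from -0.25 to 2.17. In double-positive minus PD-1+ Mars ran from -0.11 to 1.6, Mars2 from -2.49 to 0.6 and Pars2 from -1.69 to 0.04. In LAG3+ minus PD-1+ Mars ran from -0.13 to 1.58 and Nars from -0.2 to 3.83. The arrays behind the ends were the triple-negative ones for Ears2 and Rars2 and the PD-1+ ones for the other genes of the last 3 comparisons. Gars and Aars kept their sign, with limma adjusted p-values in double-positive minus triple-negative from 0.148 to 0.699 and from 0.157 to 0.838.

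Alternatives for the pathway genes were chosen after seeing the data. In double-positive minus triple-negative, leaving out each array, Aimp1 ran from -0.35 to 0.16, Qrsl1 from -0.63 to 3.06, Mtrf1 from -1.63 to 0.15 and Mxd1 from -0.44 to 0.053, with both ends set by the triple-negative arrays. Eif4h passed at offset 50 (1.05) and with no background correction (1.09). Asns passed in 14 of 18 alternatives there. In the mean of double-positive and LAG3+ Asns passed in 13, Ppp1r15a in 11 and Ifng in 11 of 18. Asns lost its call without either triple-negative array, either double-positive array or the first LAG3+ array, and Ppp1r15a and Ifng without any 1 of the 6 arrays compared and with no detection filter. Ppp1r15a and Ifng passed in 8 of 18 in double-positive minus triple-negative, the replicate block among them (adjusted p = 0.0416 and 0.0369).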
